A study of Mus musculus with 12 samples.

Results

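The genes described here are 10 genes of major histocompatibility complex (MHC) class I presentation, out of 26264 gene symbols counted in glomeruli of a pair of BALB/c mouse substrains. They are the heavy chain genes H2-K1, H2-D1, H2-Q1, H2-Q2, H2-Q4, H2-Q6 and H2-T23, the light chain gene B2m, and the peptide transporter genes Tap1 and Tap2. They were found in the count tables by symbol, and the list was selected on results of these same libraries, among them the ByJcl to Ajcl differences of H2-Q6 and H2-Q4. Differences between the substrains at 1 time point are therefore given below as a description, with no test, and the ADR comparisons are not independent evidence for the choice. All 10 genes passed the filter on low counts, as did 17002 symbols in all.

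Glomeruli were pulled out of the kidney with magnetic beads lodged in their capillaries, and their poly(A) RNA was sequenced. All mice were males, 8 weeks old, of the substrains BALB/cAjcl (Ajcl) or BALB/cByJcl (ByJcl). The baseline groups were untreated (3 libraries per substrain), and the Day 5 groups had received 1 intravenous dose of adriamycin (ADR, doxorubicin) of 10 mg/kg, injected behind the eye, 5 days earlier (3 libraries per substrain). The study's methods also mention saline for control mice, while its results call the baseline mice untreated. A vehicle group at Day 5 is not among these libraries. No transgene or deletion was used. ADR injures podocytes, the epithelial cells of the glomerular filter, and BALB/c mice are a common host for this model. The sources name no separate animal for each library beyond a replicate number, so the p-values measure the spread between libraries.

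MHC class I molecules carry short peptides from inside the cell to its surface, where CD8 T cells and natural killer cells inspect them. A heavy chain pairs with the light chain beta-2-microglobulin, and the pair is loaded with peptide in the endoplasmic reticulum next to the TAP transporter, which is built from the Tap1 and Tap2 products. H2-K1 and H2-D1 encode the classical heavy chains of the mouse. The H2-Q and H2-T genes encode further heavy chains, such as Qa-1 from H2-T23, and the number of intact H2-Q genes varies between mouse strains. Interferons raise class I genes in most cell types, with the transactivator NLRC5 and factors of the IRF and NF-κB families acting at their promoters.

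Of the 10 genes, 9 lie in the MHC on chromosome 17 of the GRCm39 build. H2-K1 is at chr17:34214987-34219321 (minus strand), Tap1 at chr17:34405996-34416199 and Tap2 at chr17:34422501-34435829 (both plus strand). H2-D1 is at chr17:35481691-35486475, and the H2-Q genes follow on the plus strand, with H2-Q1 at chr17:35539381-35544075, H2-Q2 at chr17:35561087-35566181, H2-Q4 at chr17:35598586-35604274 and H2-Q6 at chr17:35643777-35655332. H2-T23 is at chr17:36340229-36345571 (minus strand). B2m is on another chromosome, at chr2:121977957-121983594 (plus strand).

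The heavy chain genes are close copies of each other, which bears on how reads are shared among them. The first 90 bases of coding exon 3, which encodes part of the peptide-binding groove, are shown for 5 of them from the GRCm39 reference. Capitals mark bases that differ from H2-Q6.
H2-Q6 (chr17:35644547-35644636, plus strand): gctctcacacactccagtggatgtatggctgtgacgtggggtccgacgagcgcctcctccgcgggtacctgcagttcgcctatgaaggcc
H2-Q4 (chr17:35599337-35599426, plus strand): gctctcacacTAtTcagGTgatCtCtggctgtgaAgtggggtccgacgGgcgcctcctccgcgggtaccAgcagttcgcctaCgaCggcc
H2-D1 (chr17:35482815-35482904, plus strand): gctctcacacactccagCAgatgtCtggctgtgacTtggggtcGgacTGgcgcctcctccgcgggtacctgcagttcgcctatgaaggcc
H2-K1 (chr17:34218431-34218520, minus strand): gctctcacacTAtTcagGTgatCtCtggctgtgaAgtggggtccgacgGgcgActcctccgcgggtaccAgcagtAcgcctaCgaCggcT
H2-T23 (chr17:36342716-36342805, minus strand): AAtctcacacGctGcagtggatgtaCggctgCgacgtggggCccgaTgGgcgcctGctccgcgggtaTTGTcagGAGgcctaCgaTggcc
Over the whole exon of 276 bases, H2-Q6 was 89.5% identical to H2-Q4, 87.7% to H2-D1, 86.2% to H2-K1 and 72.1% to H2-T23, and H2-K1 was 91.3% identical to H2-Q4. Stretches of 100 bases taken from the reference transcripts also occurred in another gene for 9.05% of the positions of H2-Q6, 8.13% of H2-Q4, 8.05% of H2-Q1 and 3.71% of H2-Q2. The share was 2.03% for H2-K1, 2.53% for H2-D1 and 2.57% for H2-T23, and 0 for B2m, Tap1 and Tap2. The reference is C57BL/6J, and BALB/c mice carry another H2 haplotype, so counts of single heavy chain genes can include reads of a sister gene.

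Promoter stretches are shown for the 4 heavy chain genes whose window held a GAANNGAAA match, since interferon acts on class I genes through sites of this type. H2-Q2, H2-T23, B2m and Tap1 had a window without such a match. RefSeq windows of the GRCm38.p6 build, covering the 250 bases before each start site, were held for 8 of the 10 genes (not H2-Q1 and Tap2). The motifs searched, on both strands, were GGGATTCCC (a core letter string of NF-κB type sites), GAANNGAAA (of interferon-stimulated response elements) and CCAAT (of NF-Y type boxes). Matches are in capitals, and GAANNGAAA is seen here as its reverse complement.
H2-K1 (chr17:34000349-34000477, minus strand, bases -130 to -2): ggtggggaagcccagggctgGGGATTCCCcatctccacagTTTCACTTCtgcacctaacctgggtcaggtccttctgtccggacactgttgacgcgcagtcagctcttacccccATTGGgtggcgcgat
H2-D1 (chr17:35262904-35263032, plus strand, bases -190 to -62): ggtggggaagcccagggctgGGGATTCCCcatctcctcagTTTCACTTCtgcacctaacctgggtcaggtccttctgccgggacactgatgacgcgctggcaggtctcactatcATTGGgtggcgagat
H2-Q4 (chr17:35379424-35379552, plus strand, bases -193 to -65): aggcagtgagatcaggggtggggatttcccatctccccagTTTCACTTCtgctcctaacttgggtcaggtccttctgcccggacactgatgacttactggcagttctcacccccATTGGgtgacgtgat
H2-Q6 (chr17:35424658-35424786, plus strand, bases -192 to -64): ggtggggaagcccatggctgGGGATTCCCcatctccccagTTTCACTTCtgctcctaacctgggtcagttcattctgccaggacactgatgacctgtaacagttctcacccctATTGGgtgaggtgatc
GGGATTCCC was found for H2-K1, H2-D1 and H2-Q6, against 0.301% of all 32851 windows. GAANNGAAA was found for these 3 and H2-Q4, against 6.31% of all windows. CCAAT was found for all 8 genes with a window, against 33.8% of all windows. A match describes these reference letters, and no match says only that the letters are not in the window.

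Total counts ran from 42198416 to 54687045 per library. Podocyte genes were abundant, with 20 listed markers summing to 14600 to 29000 CPM (counts scaled to a common library total) in the 11 libraries compared. The study left out Ajcl Day 5 replicate 1 for reduced glomerular purity. In that library 20 proximal tubule markers summed to 16100 CPM, against 1110 to 10400 CPM in the others. It is also left out of the main fit here, so that Ajcl Day 5 has n = 2 (replicates 2 and 3), and its values are given beside the rest. Baseline and Day 5 counts were deposited in separate tables, and a difference between the tables cannot be told apart from the ADR response. Without a vehicle group at Day 5, effects of the injection procedure and of time cannot be told apart from it either.

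Levels differed widely among the 10 genes. Per kilobase of merged exons, the mean level at Ajcl baseline was 160 CPM for B2m, 61.3 for H2-D1, 58.4 for H2-K1, 34.9 for H2-T23, 27.8 for H2-Q4 and 15.3 for Tap2. It was 3.38 for H2-Q1, 2.93 for H2-Q6, 2.89 for Tap1 and 1.87 CPM per kilobase for H2-Q2. The libraries of H2-D1 and H2-K1 overlapped on this scale, as did those of H2-T23 and H2-Q4, and those of H2-Q1, H2-Q6 and Tap1. In ByJcl at Day 5 the order ran from B2m (430) over H2-K1 (241), H2-D1 (183), H2-Q4 (110), H2-T23 (94.5), Tap2 (31), Tap1 (17.4), H2-Q1 (11.8) and H2-Q2 (6.22) to H2-Q6 (0.0584 CPM per kilobase). In all, the 10 genes took 0.0892% to 0.127% of the counts at baseline, and 0.239% to 0.449% in ByJcl at Day 5.

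**Figure D1:**
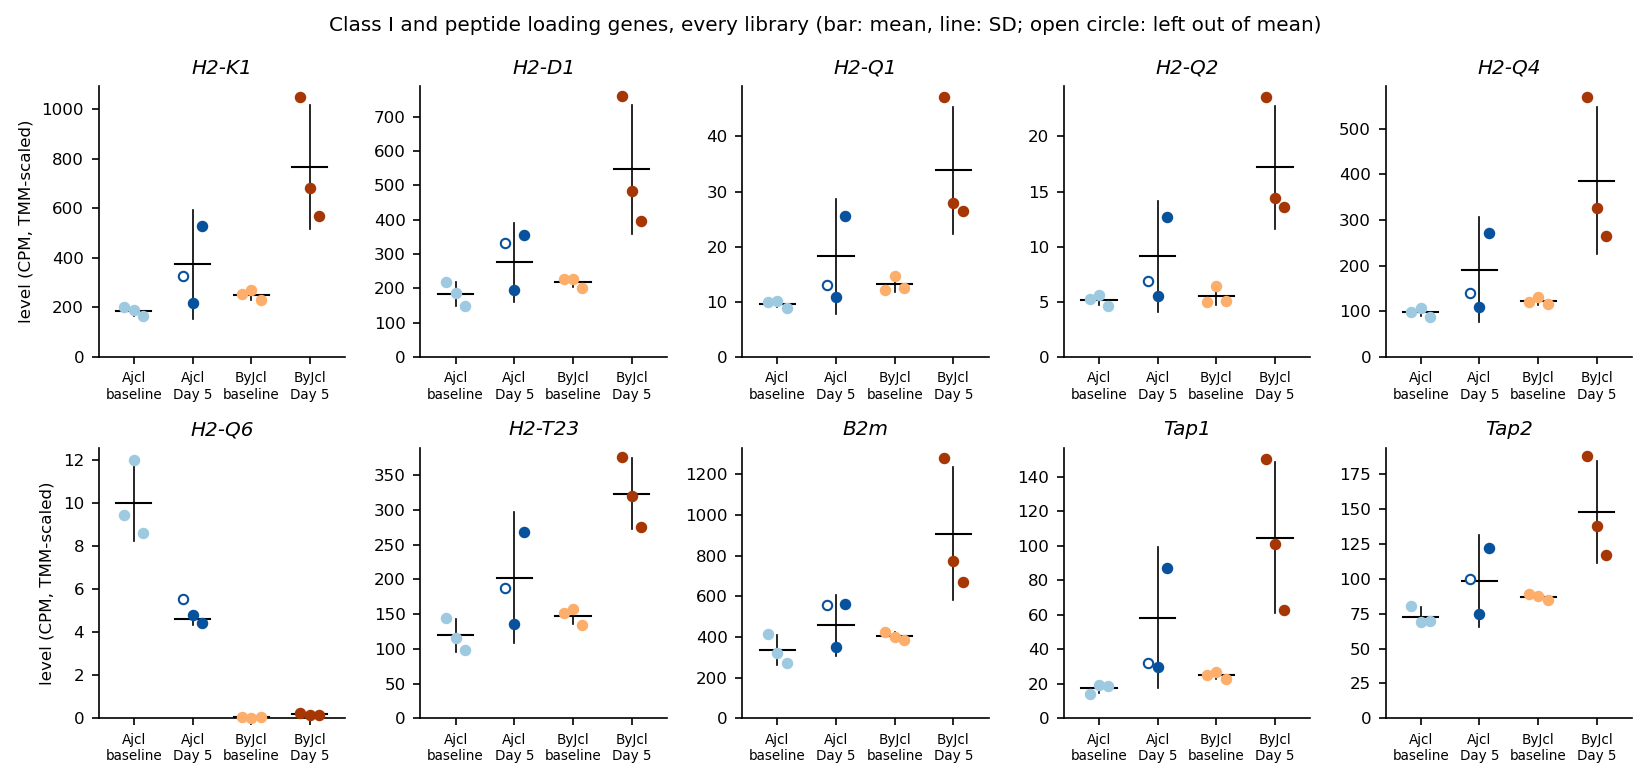
Level of each gene in every library, in CPM scaled by TMM library factors, with 1 panel per gene and its own axis from 0. Points are libraries, bars are means and lines are SDs; the open circle is Ajcl Day 5 replicate 1, which is not in the mean. For 9 of the 10 genes the 3 ByJcl Day 5 libraries had the highest mean, whereas H2-Q6 was at 8.6 to 12 CPM in Ajcl baseline and at or under 0.266 CPM in all ByJcl libraries.

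After ADR, the 9 genes other than H2-Q6 rose in ByJcl, by 1.7-fold (Tap2) to 4.21-fold (Tap1). H2-Q6, with at most 12 counts in a ByJcl library, passed the filter on low counts through the Ajcl libraries and is described apart. Across all genes tested, 5.75% were called higher in this comparison (edgeR quasi-likelihood test, false discovery rate, FDR, under 0.05). The median log2 fold change (log2FC) was 1.37 over the 9 genes and 0.01 over all genes. In each of the 9 genes the lowest Day 5 library lay above the highest baseline library, an order that 17.3% of all genes showed.

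Both classical heavy chain genes rose. H2-K1 was at 254, 269 and 229 CPM at ByJcl baseline and at 1050, 684 and 568 CPM at Day 5 (log2FC 1.62 ± 0.30 SE, FDR 0.00796). The first Day 5 library was well above the other two, and all 3 were above baseline. H2-D1 was at 228, 228 and 200 CPM at baseline and at 759, 484 and 397 CPM at Day 5 (log2FC 1.32 ± 0.27 SE, FDR 0.0117). Its Day 5 libraries stood in the same order as those of H2-K1.

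Of the other heavy chains, H2-Q4 was the most abundant Q gene. It was at 121, 132 and 115 CPM at ByJcl baseline and at 569, 326 and 264 CPM at Day 5 (log2FC 1.66 ± 0.32 SE, FDR 0.0103). H2-Q1 was at 12.2, 14.7 and 12.5 CPM and then at 47.2, 28 and 26.4 CPM (log2FC 1.37 ± 0.29 SE, FDR 0.0153). These low levels lay an order of magnitude under H2-Q4 and moved with it. H2-Q2 was at 4.99, 6.43 and 5.03 CPM and then at 23.6, 14.4 and 13.6 CPM (log2FC 1.65 ± 0.30 SE, FDR 0.00789). H2-T23, which encodes the Qa-1 heavy chain, was at 151, 157 and 134 CPM and then at 376, 320 and 275 CPM (log2FC 1.13 ± 0.23 SE, FDR 0.0123). Its Day 5 libraries lay closer together than those of the other heavy chains.

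The light chain gene B2m was at 425, 399 and 386 CPM at ByJcl baseline and at 1280, 771 and 671 CPM at Day 5 (log2FC 1.17 ± 0.25 SE, FDR 0.016). The transporter subunits rose by unequal amounts. Tap1 went from 24.9, 26.8 and 22.8 CPM to 150, 101 and 62.7 CPM (log2FC 2.07 ± 0.38 SE, FDR 0.00746), the largest fold of the 9. Tap2 went from 89.1, 87.7 and 84.5 CPM to 188, 138 and 117 CPM (log2FC 0.76 ± 0.19 SE, FDR 0.0307), the smallest of the 9. Counts of Tap1 per 100 counts of Tap2 were 27 to 30.6 at ByJcl baseline and 53.7 to 79.5 at Day 5. Tap1 overlaps Psmb9 on the opposite strand by 743 bases, and the strand setting of the counting is not given in the sources used here.

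ByJcl Day 5 replicate 1 had the highest level of all 10 genes, and replicate 3 the lowest of 9. With any 1 of the 6 ByJcl libraries left out, H2-K1, H2-D1, H2-Q2, H2-Q4, H2-T23 and Tap1 kept their call. Tap2 lost it without any of the 3 baseline libraries or without Day 5 replicate 1 or 2 (FDR 0.0757 to 0.0926). H2-Q6 lost it without baseline replicate 1 or 2 or Day 5 replicate 1 or 2 (FDR 0.0569 to 0.0814). B2m lost it without baseline replicate 2 (FDR 0.0628) or 3 (FDR 0.056), and H2-Q1 without baseline replicate 1 (FDR 0.056) or 3 (FDR 0.0538).

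In Ajcl, none of the 10 genes passed the test after ADR (0 of 10, edgeR FDR 0.131 to 0.676), where 0.312% of all genes did. At an unadjusted p under 0.05, 7 of the 10 passed, of which 6 were higher and 1 lower at Day 5, where 9.8% of all genes passed. DESeq2 called 2 of the 10, where it called 1.77% of all genes, namely Tap1 (log2FC 1.74, FDR 0.000997) and H2-Q6 (log2FC -1.12, FDR 0.00567). The edgeR log2FC was positive for 9 genes, with a median of 0.79 over all 10. In 4 genes (H2-K1, H2-Q1, H2-Q4 and Tap1) both Day 5 libraries lay above the 3 baseline libraries, an order that 13.6% of all genes showed. For H2-Q6 both lay below, as for 11.5% of all genes.

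The Ajcl Day 5 libraries were far apart. H2-K1 was at 203, 191 and 165 CPM at Ajcl baseline, and at Day 5 at 217 CPM in replicate 2 and 530 CPM in replicate 3 (log2FC 1.01 ± 0.32 SE, FDR 0.292). Replicate 2 thus sat just over baseline and replicate 3 near the lowest ByJcl Day 5 library, with the left-out replicate 1 between them at 326 CPM. H2-D1 was at 218, 186 and 147 CPM at baseline and at 194 and 356 CPM at Day 5, with 333 CPM in replicate 1 (log2FC 0.58 ± 0.29 SE, FDR 0.562). H2-Q4 was at 98.7, 106 and 88 CPM and then at 110 and 272 CPM, with 140 CPM in replicate 1 (log2FC 0.97 ± 0.35 SE, FDR 0.352). In each of these genes replicate 2 was close to or inside the baseline range.

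The other heavy chains apart from H2-Q6 showed the same spacing. H2-Q1 had 433, 475 and 434 counts at Ajcl baseline and 501 and 1262 counts at Day 5, with 612 counts in replicate 1 (log2FC 0.92 ± 0.32 SE, FDR 0.334). H2-Q2 was at 5.26, 5.61 and 4.62 CPM and then at 5.55 and 12.7 CPM, with 6.88 CPM in replicate 1 (log2FC 0.82 ± 0.33 SE, FDR 0.427). H2-T23 was at 145, 116 and 97.7 CPM and then at 136 and 269 CPM, with 188 CPM in replicate 1 (log2FC 0.76 ± 0.25 SE, FDR 0.306). Replicate 2 lay inside the baseline range for H2-Q2 and H2-T23.

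The light chain and the transporter followed. B2m was at 414, 321 and 273 CPM at Ajcl baseline and at 351 and 563 CPM at Day 5, with 556 CPM in replicate 1 (log2FC 0.44 ± 0.28 SE, FDR 0.676). Tap1 was at 14.1, 19.4 and 18.6 CPM and then at 29.5 and 87.1 CPM, with 32 CPM in replicate 1 (log2FC 1.75 ± 0.40 SE, FDR 0.131). Tap2 was at 80.7, 68.7 and 69.5 CPM and then at 75.1 and 122 CPM, with 100 CPM in replicate 1 (log2FC 0.44 ± 0.21 SE, FDR 0.555). Of the 10 genes, 9 were highest in replicate 3 and lowest in replicate 2, by 1.6-fold (B2m) to 2.95-fold (Tap1) between these libraries, and H2-Q6 alone was not.

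The Ajcl values moved with single libraries. Without replicate 2, replicate 3 alone stood for Day 5 and was assumed to vary like the libraries of the other groups. In that fit H2-K1 (log2FC 1.49, FDR 0.0321), H2-T23 (log2FC 1.15, FDR 0.0374) and Tap1 (log2FC 2.31, FDR 0.0103) were called. Without replicate 3, none was, and the log2FC of H2-K1 was 0.21. With all 12 libraries, 0 of 10 were called, and the log2FC was 0.93 for H2-K1 and 1.49 for Tap1.

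**Figure D2:**
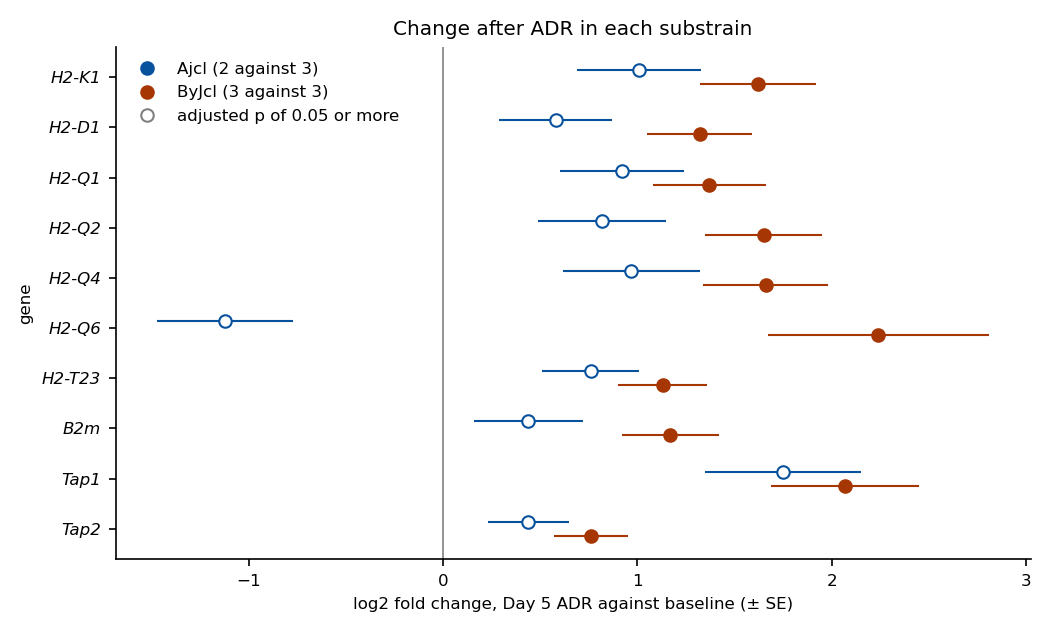
Fitted log2 fold change from baseline to Day 5 ADR for each gene, with SE, in Ajcl (2 Day 5 against 3 baseline libraries) and ByJcl (3 against 3). Filled points have an FDR under 0.05: every ByJcl point is filled and no Ajcl point is. The 9 ByJcl points other than H2-Q6 lie between 0.76 and 2.07, and that of H2-Q6 (2.24) rests on at most 12 counts per library.

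The difference of the ADR responses was tested itself, as a substrain by ADR interaction. None of the 10 genes passed (edgeR FDR 0.62 to 0.9), and 0% of all genes did, with 1363 genes (8.02%) at an unadjusted p under 0.05 and 23 (0.135%) called by DESeq2. For the 9 genes other than H2-Q6 the interaction estimates had a median of 0.61, against 0.00 over all genes, and lay between 0.33 (Tap1 and Tap2) and 0.83 (H2-Q2). The SEs of these 9 were 0.29 to 0.55. At an unadjusted p under 0.05, 1 of the 10 passed, H2-Q6. H2-K1 had an estimate of 0.61 ± 0.44 SE (FDR 0.726) and B2m of 0.72 ± 0.38 SE (FDR 0.643). Over the alternatives run, these estimates ranged from 0.13 to 1.41 for H2-K1 and from 0.41 to 1.13 for B2m. Without Ajcl Day 5 replicate 2 the estimates of H2-Q1, H2-T23 and Tap1 turned to -0.01, -0.01 and -0.23.

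For H2-Q6 the interaction estimate was 3.35 ± 0.67 SE (unadjusted p = 0.000369 and FDR 0.62 by edgeR, and FDR 0.0101 by DESeq2). Its ByJcl side rests on very few counts in a gene tested through its Ajcl level, so nothing is read from this test. Its counts were 412, 562 and 417 at Ajcl baseline and 220 and 218 at Day 5, with 259 in the left-out replicate 1. All 3 Day 5 libraries lay below all baseline libraries (log2FC -1.12 ± 0.35 SE, FDR 0.286), while the sum of the H2-Q genes did not fall. In ByJcl the counts were 2, 0 and 4 at baseline and 12, 7 and 8 at Day 5. Pooled over libraries these are 6 counts, or 0.0406 CPM (95% counting interval 0.0149 to 0.0885), and 27 counts, or 0.2 CPM (0.132 to 0.291). The fitted ByJcl log2FC of 2.24 ± 0.57 SE (4.71-fold, FDR 0.0303) rests on these few counts, and the gene was below the filter when only the ByJcl groups were fitted.

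As a share of all H2-Q counts, H2-Q6 made up 7.01%, 8.06% and 7.13% at Ajcl baseline, and 3.35% and 1.27% in Ajcl Day 5 replicates 2 and 3 (3.08% in replicate 1). The exact 95% binomial intervals of these shares reached from 6.37% to 8.72% at baseline and from 1.11% to 3.82% at Day 5. In ByJcl the share was 0.0289%, 0 and 0.0512% at baseline and 0.0385%, 0.0404% and 0.0525% at Day 5. For the library with no H2-Q6 count the interval reached up to 0.0462%. The ByJcl intervals before and after ADR overlapped, while the summed H2-Q counts rose. Both reads of a pair appear to be counted, so all these intervals are narrower than the counting error itself, and they leave out the spread between mice.

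**Figure D3:**
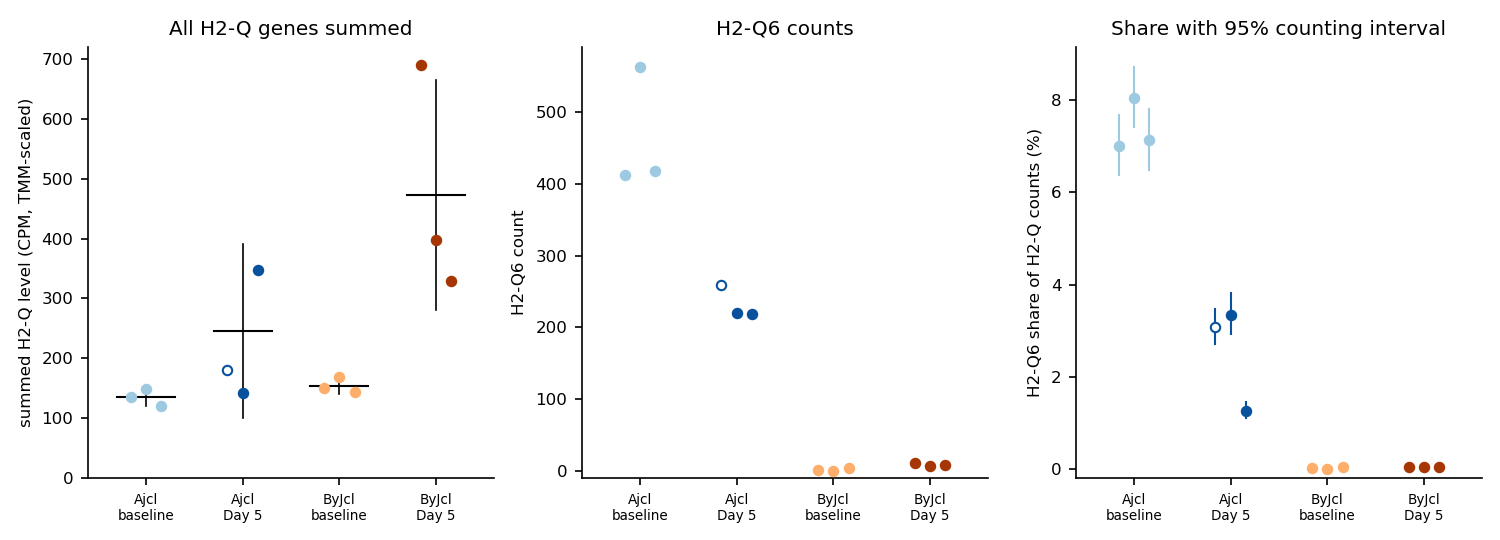
Left, summed level of the H2-Q genes in CPM; middle, H2-Q6 counts; right, H2-Q6 as a percentage of all H2-Q counts with its exact 95% binomial interval. Points are libraries (open circle, Ajcl Day 5 replicate 1), and bars and lines on the left are mean and SD. The share fell from 7.01% to 8.06% in Ajcl baseline to 1.27% to 3.35% at Day 5, and was at or under 0.0525% in ByJcl.

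When the H2-Q genes were summed into 1 feature before the fit, the pattern of the single genes other than H2-Q6 returned. The sum was at 135, 149 and 121 CPM at Ajcl baseline and at 143 and 348 CPM at Day 5, with 180 CPM in replicate 1 (log2FC 0.87, FDR 0.41). In ByJcl it was at 150, 169 and 144 CPM at baseline and at 690, 398 and 329 CPM at Day 5 (log2FC 1.62, FDR 0.0103). The interaction of the sum was 0.75 (FDR 0.683). The sum is mostly H2-Q4 and does not describe H2-Q6.

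Of 9 H2-Q genes in the tables, 6 had counts, and H2-Q7, H2-Q8 and H2-Q9 had 0 counts in all 12 libraries. H2-Q4 made up 71.2% to 73.1% of the H2-Q counts at Ajcl baseline and 76.5% to 78.2% at Ajcl Day 5, and 78.2% to 80.2% at ByJcl baseline and 80.1% to 82.5% at ByJcl Day 5. H2-Q5 was at 4.38 to 6.01 CPM at ByJcl baseline and at 9.96 to 18.8 CPM at Day 5, and rose there (log2FC 1.43 ± 0.35 SE, FDR 0.0273). H2-Q10, whose product is known as a secreted heavy chain of the liver, was at 7.09 to 9.69 CPM and then at 15.2 to 30.9 CPM, and also rose (log2FC 1.37 ± 0.37 SE, FDR 0.0386). H2-Q5 and H2-Q10 had 16.96% and 9.50% of their 100-base stretches in another gene, mostly in H2-Q7.

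At baseline 9 of the 10 genes had a higher fitted level in ByJcl, by small amounts. The ByJcl to Ajcl log2FC of these 9 lay between 0.09 (H2-Q2) and 0.52 (Tap1), and in 5 of them (H2-K1, H2-Q1, H2-Q4, Tap1 and Tap2) all ByJcl libraries were above all Ajcl libraries, an order that 9.19% of all genes showed. H2-Q6 was the exception, with a log2FC of -7.86 ± 0.48 SE. The direction of the 9 was not particular to them. All 39 interferon-induced genes described below also had a positive ByJcl to Ajcl log2FC at baseline (median 0.47), and 38 of them at Day 5 (median 0.65).

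At Day 5 the same 9 genes were higher in ByJcl, with log2FC between 0.58 (Tap2) and 1.04 (H2-K1) and a median over all 10 genes of 0.90, against 0.00 over all genes. In 6 of them (H2-K1, H2-D1, H2-Q1, H2-Q2, H2-T23 and B2m) the 3 ByJcl libraries lay above both Ajcl libraries, an order that 16.9% of all genes showed. H2-Q6 was at -4.51 ± 0.41 SE. In ByJcl against Ajcl the log2FC of H2-K1 at Day 5 was 0.54 without Ajcl replicate 2 and 1.83 without Ajcl replicate 3. The summed leukocyte markers described below were also higher in ByJcl at both times (135 to 234 against 77.6 to 114 CPM at baseline). All 20 proximal tubule markers had a negative ByJcl to Ajcl log2FC at both times, with medians of -0.93 at baseline and -0.88 at Day 5. Their sums overlapped at baseline (1170 to 5550 against 3260 to 10400 CPM). The part of leukocytes or tubule in the class I differences was not tested. Nothing is read from these substrain differences, since the genes were listed with them known.

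The rest of the class I pathway moved in part. Over all 17002 genes tested, 978 (5.75%) were called higher and 822 lower in ByJcl after ADR. Of 16 other class I and class I-like genes tested, 5 rose in ByJcl after ADR and 0 fell, with a median log2FC of 0.36. Besides H2-Q5 and H2-Q10 these were H2-K2 (log2FC 1.67, FDR 0.00563), a neighbour of H2-K1 that the annotation calls a long noncoding RNA, H2-T3 (log2FC 2.04, FDR 0.018), which encodes the thymus leukaemia antigen, and H2-T10 (log2FC 0.84, FDR 0.0417). H2-T3 was low, at 0.39 to 0.81 CPM at baseline and 1.99 to 3.34 CPM at Day 5. In Ajcl 0 of the 16 were called by edgeR, with 3 at an unadjusted p under 0.05 and 1 called by DESeq2.

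Of 25 genes of peptide supply and loading, 6 rose in ByJcl (5.75% of all genes did) and 0 fell, with a median of 0.16. These were the 3 subunits of the immunoproteasome, which cuts proteins into class I peptides, namely Psmb9 (log2FC 1.67, FDR 0.0213), Psmb8 (log2FC 1.39, FDR 0.0258) and Psmb10 (log2FC 0.98, FDR 0.0342). Psme2, of the proteasome activator PA28, rose by a log2FC of 0.89 (FDR 0.0149). Tapbp, or tapasin, which holds the heavy chain at TAP, rose by 0.99 (FDR 0.00506), and its relative Tapbpl by 0.66 (FDR 0.0398). The constitutive subunits that the immunoproteasome subunits replace had a log2FC of 0.06 (Psmb5), 0.32 (Psmb6) and 0.44 (Psmb7), and the chaperones Calr, Canx and Pdia3 of -0.35, -0.03 and -0.18, none past the threshold. In Ajcl 0 of the 25 were called by edgeR (2 at an unadjusted p under 0.05) or DESeq2.

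Of 30 regulators of class I expression tested, 9 rose in ByJcl (5.75% of all genes did) and 0 fell, with a median of 0.21. Nlrc5, the class I transactivator, went from 5.18, 8.49 and 3.32 CPM to 46.4, 25.2 and 18.2 CPM (log2FC 2.40 ± 0.60 SE, FDR 0.0291). In Ajcl it was at 1.36, 4.01 and 1.61 CPM at baseline and at 4.98 and 21.9 CPM at Day 5, with 3.09 CPM in replicate 1 (log2FC 2.53 ± 0.66 SE, FDR 0.19). Its order over the Day 5 libraries was that of H2-K1 in ByJcl, where replicate 1 was the highest for all 10 genes. In Ajcl replicate 3 was again the highest. The left-out replicate 1 lay below replicate 2 for Nlrc5, but above it for H2-K1 (326 against 217 CPM). The interferon signalling genes Irf7 (log2FC 1.47, FDR 0.00919), Irf1 (1.15, FDR 0.00979) and Irf9 (0.73, FDR 0.0373) rose in ByJcl. So did the NF-κB subunits Relb (1.18, FDR 0.00821) and Rela (0.54, FDR 0.0229), the interferon gamma receptor chain Ifngr1 (0.60, FDR 0.0258) and the feedback inhibitor Socs1 (1.17, FDR 0.0311). In Ajcl 0 of the 30 were called by edgeR, with 8 at an unadjusted p under 0.05 and 3 called by DESeq2.

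**Figure D4:**
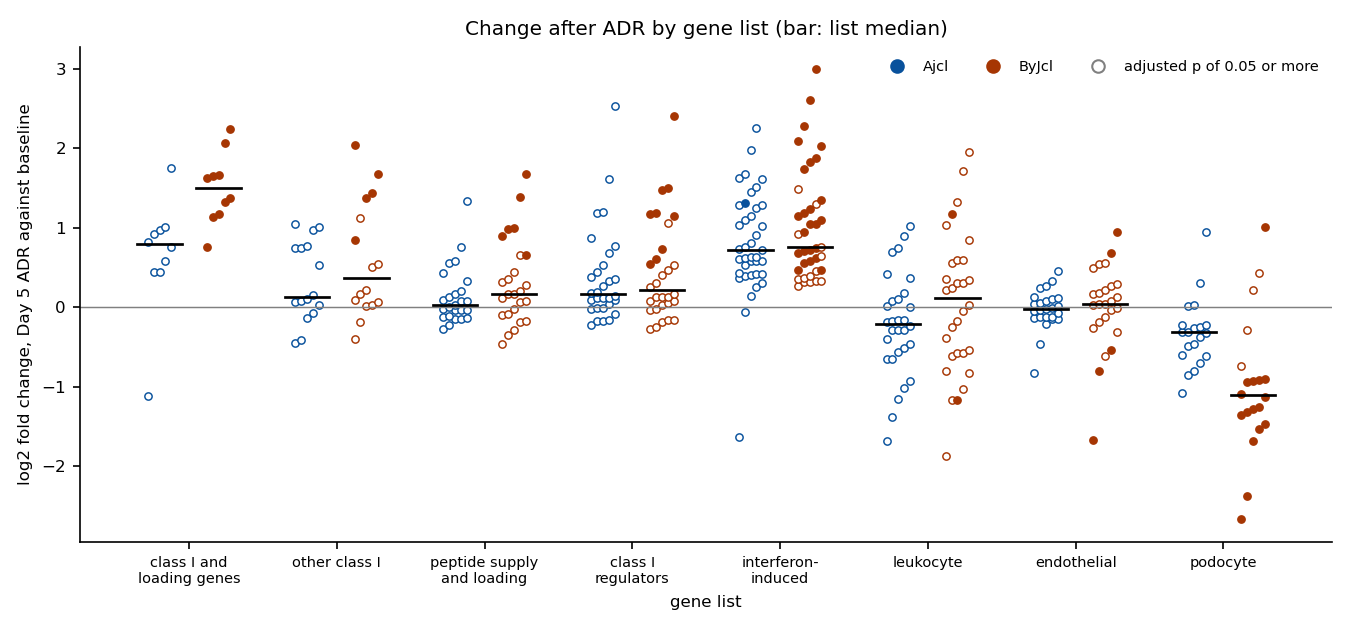
Fitted log2 fold change from baseline to Day 5 ADR for each gene of 8 lists, in Ajcl (blue) and ByJcl (red-brown). Filled points have an FDR under 0.05 and bars are list medians. The bars of the class I and loading genes are drawn over all 10, and without H2-Q6 the medians were 0.82 in Ajcl and 1.37 in ByJcl. The interferon-induced list had medians of 0.72 and 0.76, and the podocyte list a median of -1.11 in ByJcl.

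Interferon-induced genes and cell markers were counted beside the class I genes. Of 39 interferon-induced genes, 25 rose in ByJcl (Gbp2 log2FC 2.28, FDR 0.00327), with a median of 0.76, and 1, Ifit3, in Ajcl (log2FC 1.31, FDR 0.0366), with a median of 0.72. Over all genes, 5.75% were called higher in ByJcl and 0.306% in Ajcl. At an unadjusted p under 0.05, 34 of the 39 were higher in ByJcl and 28 in Ajcl, and DESeq2 called 29 and 16. Of all 17002 genes tested, 4557 in ByJcl and 1666 in Ajcl had an unadjusted p under 0.05, higher or lower. DESeq2 called 1521 of all genes higher in ByJcl and 245 in Ajcl. Podocyte markers fell in ByJcl, 15 of 20 lower and 1 higher with a median of -1.11 (Magi2 log2FC -2.38, FDR 0.00142), where 822 of all 17002 genes were called lower. In Ajcl 0 of the 20 podocyte markers were called by edgeR, with 7 at an unadjusted p under 0.05 and 3 by DESeq2. In whole glomeruli, fewer cells of a type and less RNA per cell cannot be told apart. Of 25 endothelial markers 2 rose and 3 fell in ByJcl, where 978 of all 17002 genes rose and 822 fell. The sum of the endothelial markers in ByJcl was 13200 to 15200 CPM at baseline and 9860 to 13300 CPM at Day 5. Of 20 proximal tubule markers 0 passed after ADR in either substrain by edgeR, 0 at an unadjusted p under 0.05 and 0 by DESeq2.

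Leukocytes express class I genes at high levels, so their markers bear on the levels above. In ByJcl, where 978 of all 17002 genes rose and 822 fell, 1 of 30 leukocyte markers rose (Cd68, log2FC 1.17, FDR 0.0128). Of these markers 1 fell (Cd74, log2FC -1.17, FDR 0.0221), and the median was 0.12. Their summed level was 135 to 234 CPM at ByJcl baseline and 131 to 224 CPM at Day 5, so the ranges overlapped while those of the 9 class I and loading genes other than H2-Q6 did not. In Ajcl the sum was 77.6 to 114 CPM at baseline and 50.9 to 119 CPM at Day 5. Within the Day 5 groups the sum was highest where the class I genes were, at 224 CPM in ByJcl replicate 1 (133 and 131 CPM in the others) and at 119 CPM in Ajcl replicate 3 (50.9 CPM in replicate 2). Most of the 30 markers, among them some of T, B and natural killer cells, had counts in all 12 libraries. The part of leukocytes in these class I levels was not tested.

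The heavy chains did not all rise in step. Per 100 counts of H2-K1 there were 84.6 to 90 counts of H2-D1 at ByJcl baseline and 69.9 to 72.3 at Day 5, and 58.4 to 59.7 and then 35.8 to 48.4 counts of H2-T23. In Ajcl the H2-D1 ratio was 89.3 to 107 at baseline and 102, 89.2 and 67.2 in Day 5 replicates 1 to 3. The ratio of H2-K2 to H2-K1 stayed between 3.36 and 4.16 per 100 over all 12 libraries, and that of H2-Q4 to H2-K1 between 43 and 55.4. Counts of B2m per count of summed class I heavy chain genes were 0.426 to 0.487 at ByJcl baseline and 0.382 to 0.417 at Day 5. These ratios are descriptions, and compare counts not scaled by gene length.

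**Figure D5:**
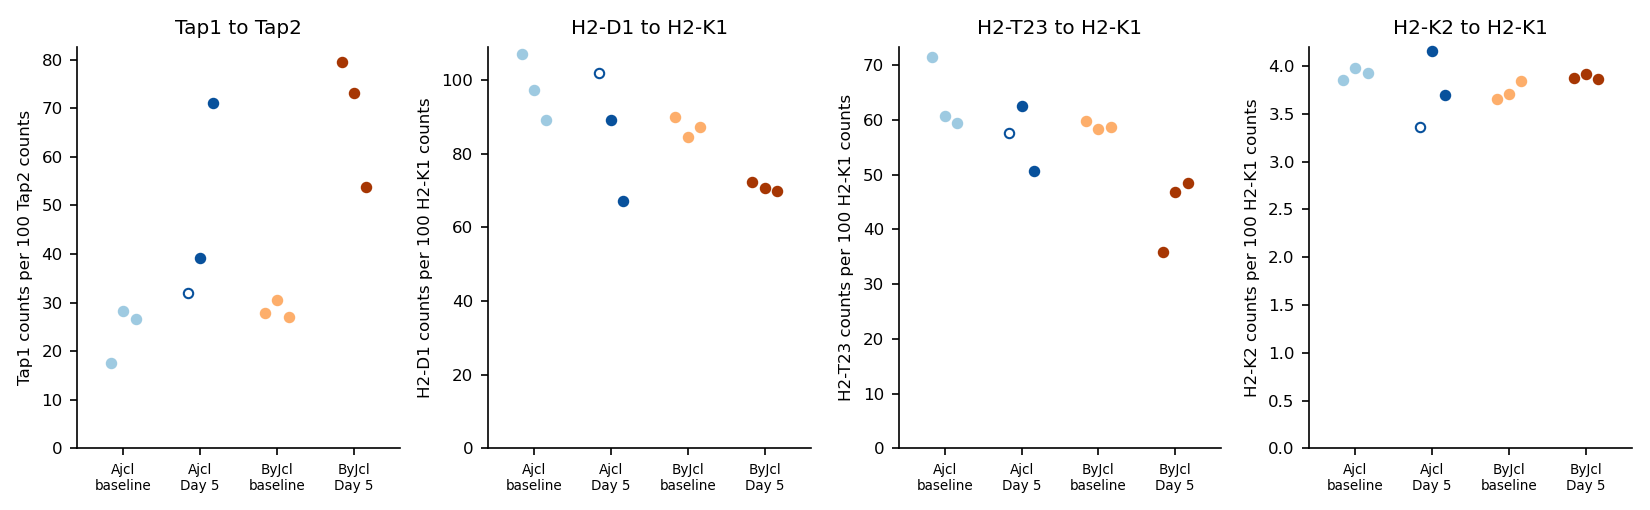
Counts of a gene per 100 counts of another in every library, for Tap1 to Tap2, H2-D1 to H2-K1, H2-T23 to H2-K1 and H2-K2 to H2-K1, each axis from 0; the open circle is Ajcl Day 5 replicate 1. In ByJcl the Tap1 ratio was 27 to 30.6 at baseline and 53.7 to 79.5 at Day 5, while the H2-K2 ratio lay between 3.36 and 4.16 in all 12 libraries.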

How the data were processed

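Glomerular poly(A) RNA of 12 libraries, 3 for each of 4 groups (substrain by baseline or Day 5 ADR), was sequenced as strand-specific read pairs. Per the labels and the study's methods, the authors used FastQC and Trimmomatic on the reads, STAR for alignment (build GRCm39) and featureCounts to count per gene; the deposited values are raw counts. Between 77.08% and 82.85% of the counts from 1 to 49 were even, so both reads of a pair appear to be counted. All columns were mapped to samples (0 left over).

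Here 11 libraries (without Ajcl Day 5 replicate 1) entered 1 edgeR 4.0.16 quasi-likelihood fit (R 4.3.3) with 4 groups, TMM scaling, the filterByExpr filter and Benjamini-Hochberg adjustment over 17002 genes; the threshold was 0.05, and the SE is the absolute log2FC divided by the square root of F. CPM use TMM-scaled totals. The fit was tested on simulated data. DESeq2 1.42.0 and the other alternatives are in the closing section. The members and lists were chosen with earlier results of these data known. All 10 members were named; of the class I, loading and regulator lists every gene called in an ADR comparison, all other H2-Q genes with counts, and of the marker lists up to 3 genes by smallest adjusted p. Values of some genes on these lists are not reported here. The Psmb5, Psmb6, Psmb7, Calr, Canx and Pdia3 values were added after they were seen. Sequences are from GRCm39 and RefSeq (GRCm38.p6). Replicate numbers were not shown to pair the libraries. Of 18 same-numbered pairs of libraries, 7 deviated together with a correlation over 0.1 (range -0.389 to 0.532). Differently numbered pairs were not compared, so pairing is not excluded. No pair of libraries of the same group was a duplicate, and pairs across groups were not checked. Total counts were 42198416 to 54687045 per library. The counting error depends on the count of each gene, and members under 10 counts (H2-Q6 in ByJcl) are the least precise.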

Additional observations from a re-analysis of the deposited data

Results flagged for a closer look

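H2-Q6 is listed because its counts were lower after ADR in Ajcl and higher in ByJcl, where they were near 0 throughout. Every Ajcl Day 5 library lay below every Ajcl baseline library (218 to 259 against 412 to 562 counts), and every ByJcl Day 5 library above every ByJcl baseline library (7 to 12 against 0 to 4 counts). The difference of the log2 fold changes, ByJcl minus Ajcl, was 3.35, with an adjusted p of 0.62 by edgeR and 0.0101 by DESeq2. With the H2-Q genes summed, the difference was 0.75. The ByJcl values passed the filter on low counts through the Ajcl libraries, and the H2-Q6 share of H2-Q counts in ByJcl was 0 to 0.0512% at baseline and 0.0385% to 0.0525% at Day 5. Nothing is read from this difference, and its cause was not tested.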

How the results depend on the processing

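In ByJcl, the 9 genes other than H2-Q6 kept a higher value under all alternatives run, and 6 of them (H2-K1, H2-D1, H2-Q2, H2-Q4, H2-T23 and Tap1) were called in each. In Ajcl, 0 were called, except 2 by DESeq2, and 0 to 3 with 1 library left out. For the interaction, 0 were called, except 1 by DESeq2. For ByJcl against Ajcl at Day 5, on which the genes were selected and which is no test of them, 1 was past the threshold (0.165% of all genes were), but 4 by DESeq2, 1 to 4 with 1 of the 11 libraries left out, and 7 with Ajcl Day 5 replicates 1 and 2 in place of 2 and 3, a choice made after seeing the data under which 793 of 16953 genes were past it; the summed H2-Q log2FC was then 1.54 and past it too (0.45 to 1.71 with 1 of the 11 left out). Reversed values were few. They were H2-Q2 at baseline (-0.04 to 0.15 with 1 library left out, lowest without ByJcl replicate 2), the interactions of H2-Q1 (-0.01 to 1.21), H2-T23 (-0.01 to 0.97) and Tap1 (-0.23 to 1.33), lowest without Ajcl Day 5 replicate 2 and highest without replicate 3, and, in place of H2-Q6, the sum of H2-Q genes or of all class I genes (0.87 and 0.80 after ADR in Ajcl, 0.19 and 0.30 at baseline, 0.94 and 0.89 at Day 5). The replicate block, whose numbers were not shown to pair the libraries, left 9 genes called in ByJcl (without H2-Q6, log2FC 2.22, adjusted p = 0.0542) and changed no other call of the 10. Over all genes, the ByJcl ADR count was 1800, but 1197 with all 12 libraries, 2694 by DESeq2 and 680 to 1611 with 1 library left out. The Ajcl ADR count was 53, but 301 by DESeq2, 99 without a filter on low counts, 33 with only its own groups, 26 with the block and 11 to 180 with 1 library left out. The substrain counts of 27 and 28 were 101 and 555 by DESeq2, 15 and 6 with only the groups compared, and 30 and 56 without a filter; all 12 libraries gave 19 and 72, and 1 library left out 12 to 27 and 9 to 218 (9 without Ajcl Day 5 replicate 2, 218 without replicate 3). Only the groups compared left H2-Q6 out of the ByJcl ADR fit, below the filter. Counts under 10 limit H2-Q6 in ByJcl.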
